A study of Bos grunniens x Bos taurus and Bos grunniens with 6 samples.

Results

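Most RNF, TRIM and MARCHF genes encode RING-type ubiquitin ligases, and their messages were followed in the testis of cattle-yak and yak. All members are called ligases here for short, though some, such as TRIM14, lack a RING. Members were chosen by symbol alone: every gene named RNF, TRIM or MARCHF with a number, together with RLIM, MDM2, MDM4, the CBL, SIAH and UBR genes, with RNF8 and RNF212 left out. The rule found 175 genes of the 18918 in the table, under 154 distinct symbols, and each gene identifier was kept as its own entry. Of these, 79 were RNF genes, 65 TRIM, 12 MARCHF and 19 others. RNA-seq of testis from 3 cattle-yak (C1 to C3) and 3 yak (Y1 to Y3), all 4 years old and with 1 library per animal, gave the values. The cattle-yak were first-generation males of Jersey cattle sires and Gannan yak dams from Xiahe County, and the yak were Gannan yak from Linxia County. The labels give castration as the source of all testes, whereas the study's methods give euthanasia for the yak, so that cross, county and way of sampling cannot be told apart between the groups. No transgene or treatment was involved, and F1 cattle-yak bulls are the study's model of hybrid male sterility.

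Ubiquitin ligases are the last of the enzymes that pass ubiquitin to a protein, and they choose the target. An E1 enzyme activates ubiquitin, an E2 enzyme carries it, and a RING ligase brings the loaded E2 to the target, while a HECT ligase takes the ubiquitin itself before passing it on. In the testis, ubiquitin marks proteins for removal as germ cells pass through meiosis and shape the sperm head and tail, and several RING ligases are known chiefly from spermatids.

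Values are fragments scaled to the length of the gene model and to the depth of the library (FPKM), a level per length that can be compared between genes. Each cattle-yak library held 11175100 to 11834987 fragments on genes and each yak library 12991641 to 13136129, and a single fragment on 1 kb of gene stood for 0.0761 to 0.0895 FPKM. Where values are set side by side, those of C1, C2 and C3 come first and those of Y1, Y2 and Y3 second unless named otherwise, and a bare number in brackets after them is the log2 (foldchange) with the deposited scaling. The tissue was checked against cell type markers. All 14 tested Sertoli cell markers were higher in cattle-yak (summed level 2742 to 2887 FPKM against 542 to 624 FPKM in yak), with GATA1 at 0 in all cattle-yak and not tested. Of 9 Leydig, 7 myoid, 7 endothelial and 8 spermatogonial markers, 8, 7, 4 and 7 were higher (6, 6, 0 and 6 with median-of-ratios scaling, and 12 of the Sertoli markers), while CYP51A1 of the Leydig and VWF of the endothelial markers were lower. The spermatogonial sum was 736 to 939 FPKM against 178 to 246. All 6 round spermatid markers were lower (13.6 to 56.5 FPKM summed against 816 to 871), as were all 6 elongating spermatid markers (18.3 to 85.9 against 9060 to 11020). Of 7 spermatocyte markers SYCP3 was higher, PIWIL1 was lower and 5 were not called (185 to 305 against 321 to 345). PIWIL1 alone had 25.5, 14.6 and 6.99 FPKM in cattle-yak and 163, 147 and 135 FPKM in yak. It made up a large part of the yak sum, so the sum does not speak for the list. In whole testis, fewer cells of a type and less RNA per cell cannot be told apart. These marker levels moved with the groups in every result that follows, and their part in the ligase values was not tested.

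With the deposited scaling, ligases fell and rose in nearly equal number in cattle-yak. A gene was called when its adjusted p was under 0.05 and its log2 (foldchange) of FPKM + 1, cattle-yak over yak, was beyond 1 in either direction, a scale that understates the change of genes at low level. Of 153 members tested, 42 were higher (27.5%, against 33.4% of all genes tested) and 44 were lower (28.8%, against 20.8% of all genes), while 67 were not called. The median log2 (foldchange) was 0.01 over the members and 0.51 over all genes, so that the members stood 0.50 below the median of all genes. In all 86 called members the 3 cattle-yak and the 3 yak did not overlap, which the thresholds of a call make likely. A lack of overlap was common: 67 members lay above the yak in all cattle-yak (53.9% of all genes did) and 60 below (30.2% of all genes), or 83.0% of members tested against 84.1% of all genes. Among the 44 falls, 19 separated the group means by more than 10-fold (43.6% of all genes called lower did), and among the 42 rises 4 did (3.36% of all genes called higher), all of them TRIM64 or TRIM43 genes. Those 4 rises had 0 to 4 fragments in each yak, so their ratios are uncertain. The plot of ranked changes shows both tails.

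**Figure D1:**
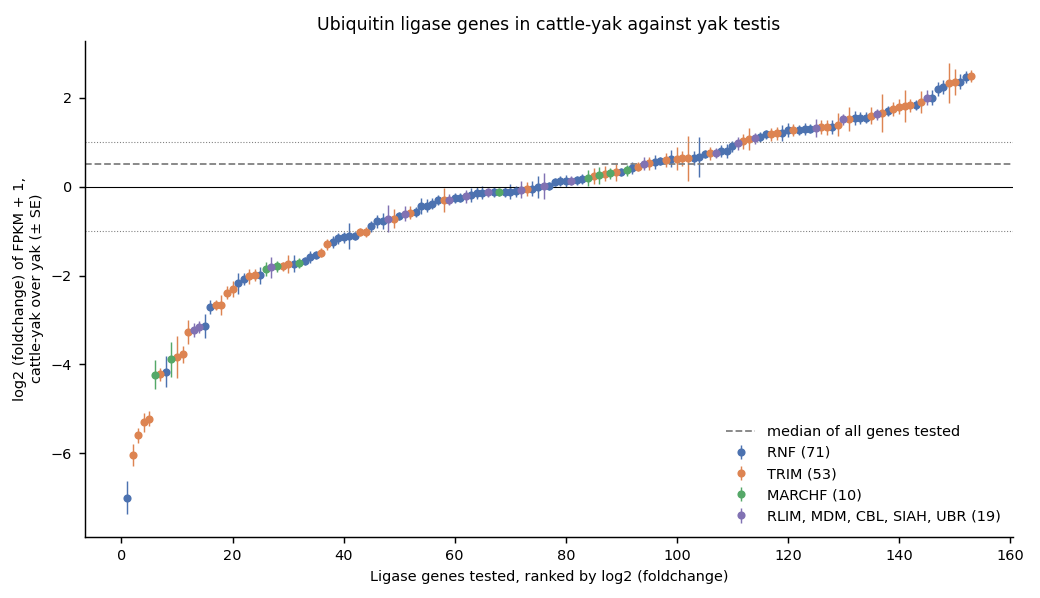
Log2 (foldchange) of FPKM + 1, cattle-yak over yak, with its standard error, for the 153 ligase genes tested, ranked from lowest to highest and coloured by family. The falls reach −7.0 and the rises 2.50, and the dashed line gives the median of all genes, 0.51. Dotted lines mark the fold threshold.

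Most of the family's RNA in yak came from the genes that were lower in cattle-yak. Summed over all 175 genes, the members had 3804, 3673 and 3559 FPKM in C1, C2 and C3, and 6830.0, 6835 and 6781 FPKM in Y1, Y2 and Y3. This was 0.589% to 0.641% of each cattle-yak library's summed FPKM and 1.11% to 1.15% of each yak library's, and the groups did not overlap. The members called lower made up 778 to 971 FPKM in cattle-yak against 4566 to 4605 FPKM in yak. Those called higher made up 747 to 799 FPKM against 221 to 239 FPKM. The members not called had 1982 to 2082 FPKM in cattle-yak and 1973 to 2019 FPKM in yak, which overlap. The direction of the sums of called members was set by the calls themselves. In yak, genes called lower had a median level of 69.1 FPKM, genes not called 16.2 FPKM and genes called higher 3.97 FPKM, an order that the calls themselves partly fix. In every yak library TRIM13 and TRIM28 were the highest members, and in every cattle-yak library RNF10, RNF181 and TRIM28 were. The number of members at 1 FPKM or more was 133 to 138 per cattle-yak and 132 to 138 per yak.

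The deposited values carry no scaling between libraries, and how many members rose depended on it. Median-of-ratios scaling moved the median of all genes from 0.51 to 0.01. With it 22 members were higher (17.6% of all genes were) and 53 lower (27.9% of all genes), and these included all 44 called lower before and 22 of the 42 called higher. All 42 stayed above 0. Centring each library on its 14 Sertoli markers moved the median of all genes to −1.70, and 118 members were then lower (73.1% of all genes) and 0 higher (0.213% of all genes). Under that centring the 44 falls remained, but 35 of the 42 rises turned below 0. The 7 at or above 0 were TRIM62, RNF128, RNF135, TRIM21, TRIM64 ENSBGRG00000015043, RNF157 and RNF144B. Both scalings move nearly every gene down, so that the falls could not be lost under them, and 7 of the 42 rises were called lower under the Sertoli centring: RNF2, RNF115, TRIM3, TRIM8, TRIM65, SIAH1 ENSBGRG00000013045 and TRIM47 ENSBGRG00000022537. The plot of the same genes under each scaling shows the points shifted down with their order nearly kept.

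**Figure D2:**
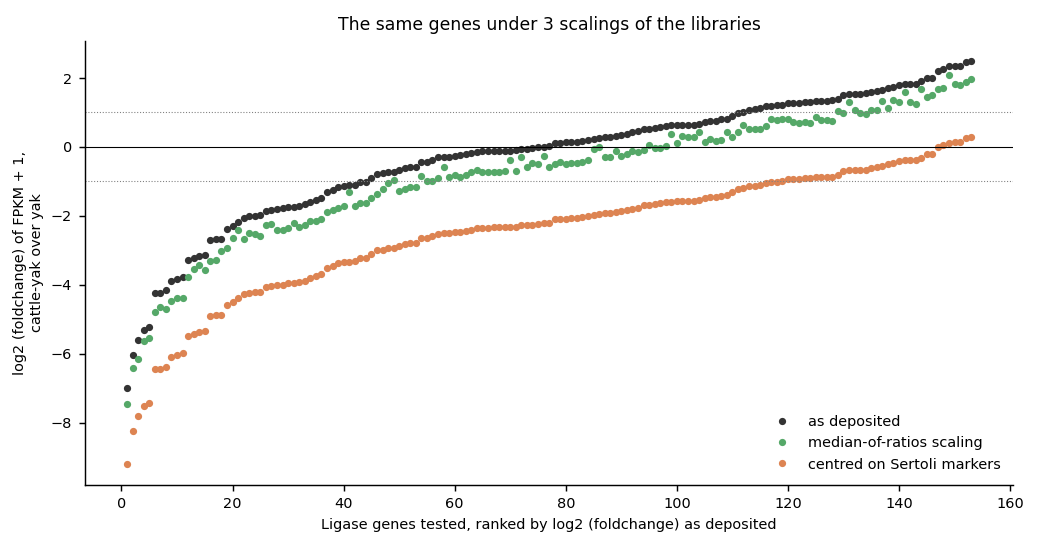
Log2 (foldchange) of the 153 tested ligase genes, ranked as deposited, under the deposited scaling, under median-of-ratios scaling and centred on Sertoli markers. Each scaling moves the genes down nearly together, and 42, 22 and 0 of them are called higher.

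By family, the MARCHF genes, which encode membrane-bound RING-CH ligases, had no member higher and 5 of 10 tested lower (50%, against 20.8% of all genes). Their median log2 (foldchange) was −0.91, and the other scalings, which move nearly every gene down, could not bring it above 0. The RNF genes had 18 higher (25.4%, against 33.4% of all genes) and 16 lower (22.5%, against 20.8%) of 71, with a median of −0.01. They had 8 and 22 with median-of-ratios scaling or 0 and 55 when centred on Sertoli markers. Over all genes, 17.6% were higher and 27.9% lower with median-of-ratios scaling, and 0.213% and 73.1% when centred on Sertoli markers. The TRIM genes, most of which carry a tripartite RING, B-box and coiled-coil motif, had 19 higher (35.8%, against 33.4%) and 20 lower (37.7%, against 20.8%) of 53. With median-of-ratios scaling 12 were higher and 21 lower. Their median of 0.33 as deposited turned to −0.11 with median-of-ratios scaling and −1.89 when centred on Sertoli markers. Among the RLIM, MDM, CBL, SIAH and UBR genes 5 were higher (26.3%, against 33.4%) and 3 lower (15.8%, against 20.8%) of 19. With median-of-ratios scaling these were 2 and 5. Grouped instead by what their proteins do, the members spread widely, from a median of −4.02 in the ligases known from male germ cells to 1.34 in those of innate immunity, which was −0.87 when centred on Sertoli markers, as the plot by role shows.

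**Figure D3:**
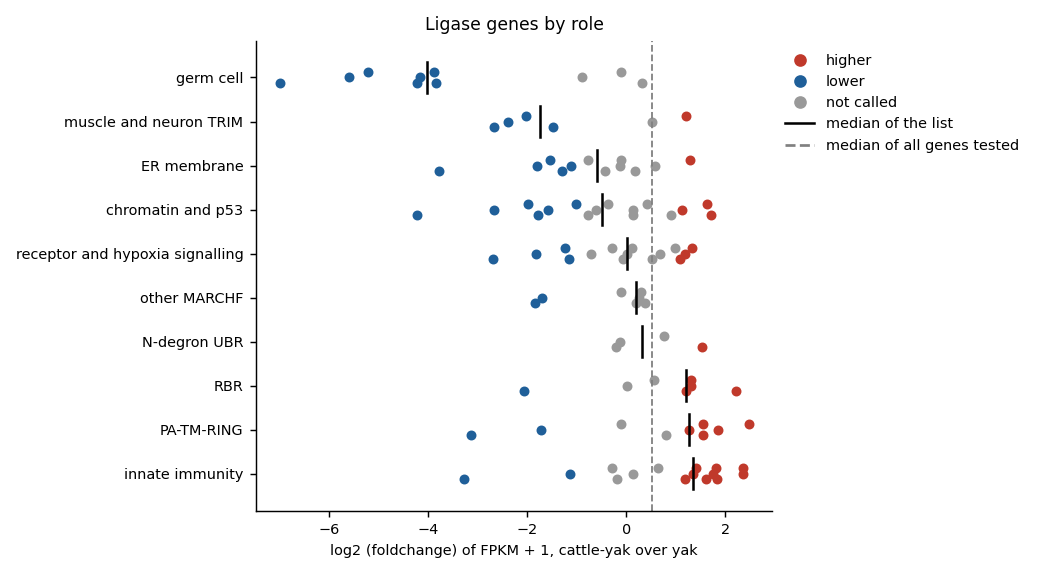
Log2 (foldchange) with the deposited scaling of each tested ligase gene by role list, called higher, called lower or not called, with the median of each list as a bar and the median of all genes (0.51) as a dashed line. Germ cell ligases lie farthest below 0, and 9 of 15 innate immunity ligases are called higher, 7 with median-of-ratios scaling and 0 when centred on Sertoli markers.

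The ligases known from male germ cells had the lowest median of the role lists. Of 10 tested, 7 were lower (70%, against 20.8% of all genes) and none higher. Their summed level was 98.7 to 149.6 FPKM in cattle-yak against 1149 to 1261 FPKM in yak. The list's median was −4.02, against 0.51 over all genes. RNF151 (ENSBGRG00000025932), a RING protein of spermatids tied to acrosome formation, had 3.49, 0.74 and 0.475 FPKM in C1, C2 and C3 and 279, 269 and 318 FPKM in Y1, Y2 and Y3. All yak were far above all cattle-yak, and C1 was the highest cattle-yak. The mean was 1.57 ± 1.67 FPKM (SD, n = 3) against 289 ± 26.1, 184-fold lower (−7.0 ± 0.37 SE on the log2 scale, adjusted p 9.6e-07). On the scale of log2 (FPKM + 1), though not by the ratio of means, this was the largest fall of any member.

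TRIM36 (ENSBGRG00000011092), a protein of the acrosome, was among the 3 most abundant ligases of 2 yak and had 325, 281 and 353 FPKM in Y1 to Y3 against 7.41, 4.65 and 5.06 FPKM in C1 to C3. The groups stood 56-fold apart, with a log2 (foldchange) of −5.60 and an adjusted p of 9.8e-08. TRIM42 (ENSBGRG00000001357) had 34.6, 37.9 and 47.6 FPKM in yak and 0.194, 0.0822 and 0 FPKM in cattle-yak, where 5, 2 and 0 fragments were counted. It was near 0 in every cattle-yak and fell 435-fold (−5.22, adjusted p 1.2e-07), a ratio that rests on those few fragments.

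Both spermatid MARCHF ligases fell. MARCHF11 (ENSBGRG00000020077), which sorts ubiquitinated membrane proteins in spermatids, had 9.45, 4.06 and 2.79 FPKM in C1 to C3 and 108, 113 and 105 FPKM in Y1 to Y3. MARCHF10 (ENSBGRG00000017221), a microtubule-associated ligase of elongating spermatids, had 17.9, 10.1 and 4.23 FPKM in C1 to C3 and 138, 161 and 155 FPKM in Y1 to Y3. In both genes C1 was the highest and C3 the lowest of the cattle-yak, and no cattle-yak reached a yak. The log2 (foldchange) was −4.23 for MARCHF11 (adjusted p 6e-06) and −3.88 for MARCHF10 (adjusted p 3e-05).

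RNF32 (ENSBGRG00000011799), which carries a pair of RING domains, had 7.78, 3.99 and 1.89 FPKM in cattle-yak and 76.9, 98.3 and 93 FPKM in yak. TRIM69 (ENSBGRG00000009992), which binds microtubules, had 11.1, 4.79 and 1.54 FPKM in cattle-yak and 75.5, 86.9 and 75.2 FPKM in yak. The order C1, C2, C3 from high to low was the same in both, and the yak lay close together. The log2 (foldchange) was −4.16 ± 0.35 (SE) for RNF32 and −3.83 ± 0.47 (SE) for TRIM69, whose adjusted p was 9.7e-05.

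The remaining germ cell ligases were not called. RNF17 (ENSBGRG00000007649), a Tudor domain protein of germ granules, had 34.3, 27 and 25.6 FPKM in cattle-yak and 56, 54.4 and 52.1 FPKM in yak. The groups did not overlap, and the log2 (foldchange) of −0.89 (adjusted p 0.00021) was inside the fold threshold, passing it at −1.01 without C1 and at −1.49 with median-of-ratios scaling. RNF141 had 55.7, 46.9 and 54.3 FPKM against 52.9, 56.7 and 60.4 FPKM, and TRIM71, an RNA-binding protein of stem cells, had 2.35, 3.23 and 2.82 FPKM against 2.58, 2.09 and 1.49 FPKM. Both overlapped between the groups, with log2 (foldchange) of −0.12 (adjusted p 0.33) and 0.32 (adjusted p 0.13). The value of TRIM71 turned to −0.11 with median-of-ratios scaling and −1.89 when centred on Sertoli markers. The plot of germ cell ligases by animal shows 7 genes wide apart and these 3 close together.

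**Figure D4:**
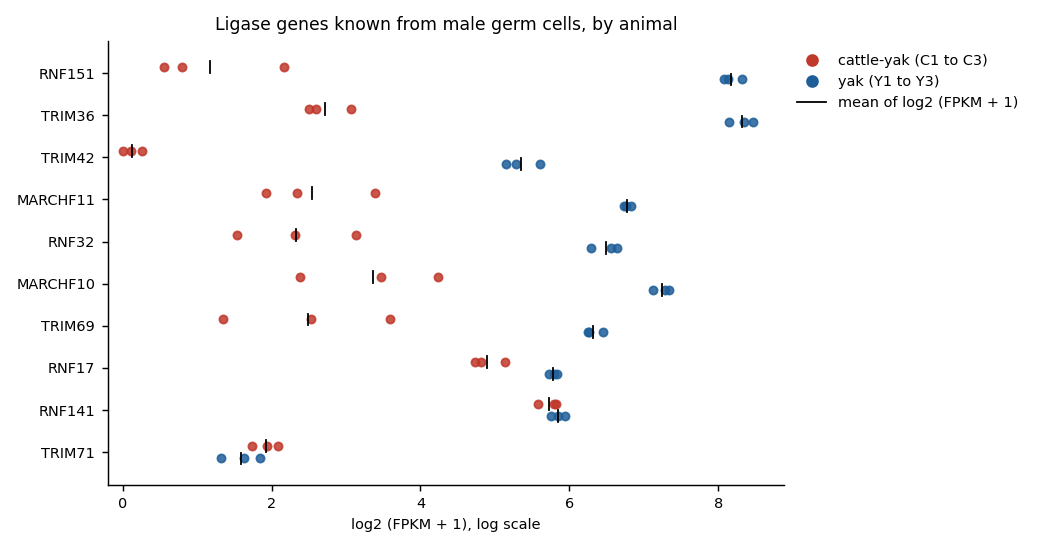
Log2 (FPKM + 1) of the 10 germ cell ligases in each of the 3 cattle-yak and 3 yak, with each group's mean as a bar. In 8 genes the groups do not overlap, and RNF141 and TRIM71 overlap.

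RLIM, an X-linked ligase that targets cofactors of LIM domain proteins, stood on 3 genes that moved in opposite directions. The longest, ENSBGRG00000023991 with a model of 3740 bases, had 18.5, 26 and 21.5 FPKM in C1 to C3 and 5.43, 3.9 and 4.84 FPKM in Y1 to Y3, every cattle-yak above every yak. It rose with a log2 (foldchange) of 2.0 and an adjusted p of 9.7e-06. The copy ENSBGRG00000008441 (2099 bases) had 0.161, 0.213 and 0 FPKM in cattle-yak, or 4, 5 and 0 fragments, and 10.2, 9.49 and 8.76 FPKM in yak. The copy ENSBGRG00000008826 (1731 bases) was at 0 in all 3 cattle-yak and had 8.53, 7.63 and 7.69 FPKM in yak, or 194, 173 and 173 fragments. Against a floor of 3 fragments over the group it was at least 159-fold lower. Both copies fell, with a log2 (foldchange) of −3.22 (adjusted p 5.7e-07) and −3.16 (adjusted p 4.3e-07). Summed over the 3 genes, RLIM had 18.7, 26.2 and 21.5 FPKM in cattle-yak and 24.2, 21.0 and 21.3 FPKM in yak, and the groups overlapped. Summed as fragments it had 823, 1090 and 933 in cattle-yak and 742, 625 and 647 in yak, which did not overlap. The sums differ because FPKM weighs a fragment on a short model more, so whether total RLIM changed is uncertain. Reads of near-identical copies could be split between them, so the value of each RLIM gene is uncertain.

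Of the 175 members, 35 genes shared 14 symbols, and their values are uncertain in the same way. TRIM47 was the only other symbol with genes called both ways. The copy ENSBGRG00000016260 had 0.621, 0.307 and 0.254 FPKM in cattle-yak and 59.4, 111 and 112 FPKM in yak, 239-fold lower (−6.04, adjusted p 3.6e-07). In cattle-yak it held 15, 7 and 6 fragments, and among the yak Y1 was the lowest. The copy ENSBGRG00000022537 had 3.12, 3.22 and 2.3 FPKM in cattle-yak and 1.15, 0.746 and 0.821 FPKM in yak. Its rise of 1.02 was at the threshold, and it was lost at 0.96 to 0.99 without C1, C2, Y2 or Y3 and at 0.65 with median-of-ratios scaling.

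The pair of RNF167 genes, which encode an endosomal and lysosomal ligase, also parted. ENSBGRG00000021278 had 1.92, 1.47 and 0.628 FPKM in cattle-yak and 25.1, 19.2 and 13.9 FPKM in yak and fell (−3.13, adjusted p 1.2e-05). ENSBGRG00000026241 had 57.1, 53.6 and 56.6 FPKM against 25.7, 36.4 and 33.7 FPKM, with the cattle-yak above every yak and a log2 (foldchange) of 0.80 that did not reach the threshold. SIAH1, which marks targets in p53 and hypoxia signalling, stood on 4 genes with a summed level of 23.0, 21.3 and 21.5 FPKM in cattle-yak and 10.9, 9.82 and 11.6 FPKM in yak. ENSBGRG00000013045 (1.09) and ENSBGRG00000017498 (1.33) rose, though neither was called with median-of-ratios scaling (0.53 and 0.88), and the other copies were not called.

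TRIM64 and TRIM43 were higher in cattle-yak and at or near 0 in most yak. Of 5 TRIM64 genes 4 were tested and all 4 were called higher. Testing required a mean of at least 0.5 FPKM over all animals. ENSBGRG00000014481, ENSBGRG00000015006 and ENSBGRG00000015043 had yak means of 0.113, 0.0122 and 0.0199 FPKM. They passed only through the cattle-yak, so the filter largely fixed their direction. ENSBGRG00000015144 had a yak mean of 0.549 FPKM. The 5 TRIM64 genes together had 6.99, 24.6 and 12.2 FPKM in C1, C2 and C3 (149, 474 and 239 fragments), and 0.592, 0 and 1.49 FPKM in Y1, Y2 and Y3 (15, 0 and 39 fragments). The pair of TRIM43 genes, described after their values were seen, had 1.45, 7.28 and 2.46 FPKM in cattle-yak (75, 336 and 116 fragments), and a single fragment in all the yak together. The tested TRIM43 gene, ENSBGRG00000014600 with a yak mean of 0.00552 FPKM, also passed the filter only through the cattle-yak. C2 was the highest in both families, and no yak reached a cattle-yak in the sums. ENSBGRG00000015043 (2.34, adjusted p 0.0013) and ENSBGRG00000015006 (1.90, adjusted p 0.00012) were the TRIM64 genes with the largest rises. Each had 1 fragment in 1 yak and none in the others, so no fold is given. The plot by animal sets these copies side by side.

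**Figure D5:**
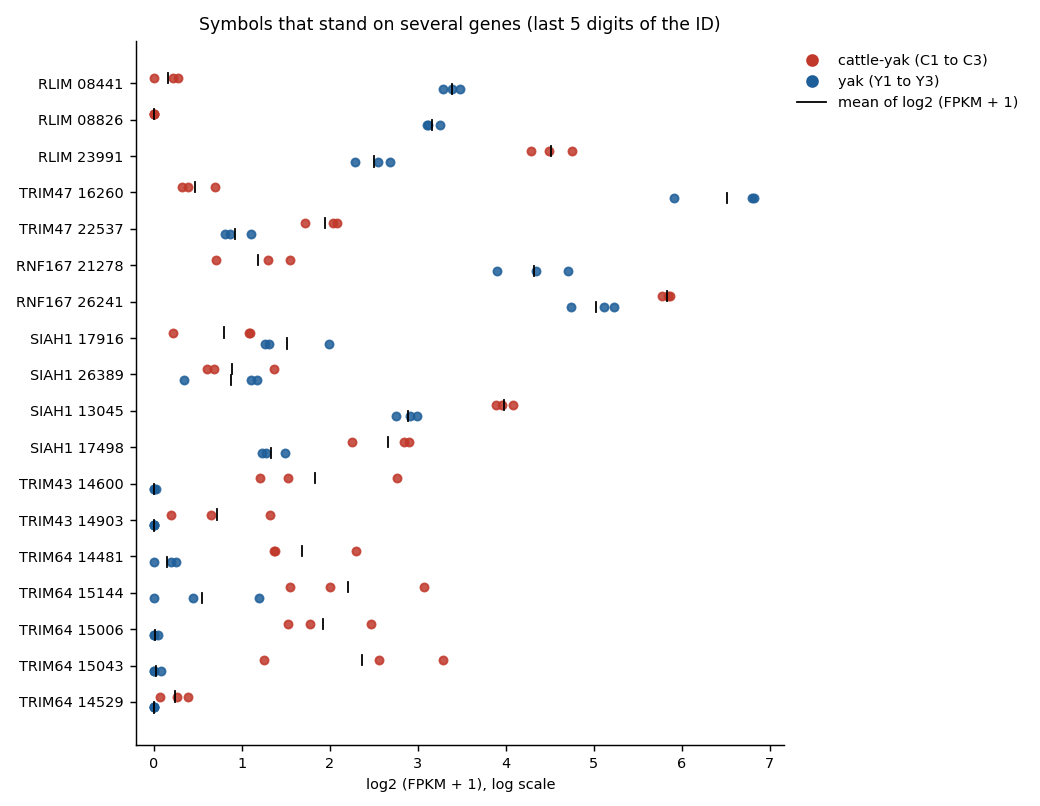
Log2 (FPKM + 1) in each of the 3 cattle-yak and 3 yak for genes that share a symbol, named by symbol and the end of the identifier, with group means as bars. The RLIM and TRIM47 genes lie on opposite sides, and in the TRIM43 and TRIM64 genes every yak lies left of every cattle-yak.

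Ligases of chromatin and of p53 divided. Of 16 tested, 6 were lower (37.5%, against 20.8% of all genes) and 3 higher (18.8%, against 33.4%), with a median of −0.49. In all 16 the groups did not overlap, as in 84.1% of all genes. The TIF1 family, whose members read chromatin and regulate transcription, accounted for 4 of the falls. TRIM66 (ENSBGRG00000007026) had 0.876, 0.869 and 0.571 FPKM in cattle-yak and 29.8, 31 and 35.6 FPKM in yak, TRIM24 53.6, 47.8 and 41.8 and 321, 319 and 286 FPKM, and TRIM28 148, 134 and 124 and 476, 491 and 436 FPKM. TRIM28, the corepressor of KRAB zinc finger proteins, thus remained the most abundant ligase of the list in both groups while it fell. The log2 (foldchange) was −4.23 for TRIM66 (adjusted p 1.6e-07), −2.67 for TRIM24, −1.79 for TRIM28 (adjusted p 1.3e-06) and −1.02 for TRIM33.

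On the other side, RNF111 (ENSBGRG00000009659), also called Arkadia and known from TGF-beta signalling, had 30.4, 28.8 and 29.3 FPKM in cattle-yak and 8.41, 7.82 and 8.76 FPKM in yak. It rose 3.54-fold (1.71 ± 0.11 SE, adjusted p 2e-06), with tight values in both groups. MDM2, the ligase that removes p53, had 20.4, 23.5 and 24.2 FPKM against 6.63, 6.01 and 7.33 FPKM and rose (1.63, adjusted p 6.8e-06). Its partner MDM4 had 23.8, 23.7 and 24.2 FPKM against 23.6, 21.2 and 20.3 FPKM, with a log2 (foldchange) of 0.14 (adjusted p 0.25). RNF2, the catalytic subunit of Polycomb complex PRC1, had 48.9, 55.6 and 44.1 FPKM against 21.8, 22.7 and 22.1 FPKM, and its rise of 1.12 was not called with median-of-ratios scaling (0.52) and was called lower when centred on Sertoli markers (−1.09). RNF111 and MDM2 kept their call with median-of-ratios scaling (1.13 and 1.06) but not when centred on Sertoli markers (−0.50 and −0.58).

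Ligases of innate immunity were the list with the highest median. Of 15 tested, 9 were higher (60.0%, against 33.4% of all genes) and 2 lower (13.3%, against 20.8%). The median was 1.34, or 0.81 with median-of-ratios scaling and −0.87 when centred on Sertoli markers. With median-of-ratios scaling 7 of the 9 kept their call. The direction depends on the list: with the deposited term innate immune response, 6 were higher and 5 lower of 16 tested. Of those lower with that term, TRIM13, TRIM28, TRIM29 and TRIM59 are outside the role list. RNF135 (ENSBGRG00000018378), which activates the RNA sensor RIG-I, had 25.1, 32.5 and 24.1 FPKM in cattle-yak and 5.02, 3.59 and 4.83 FPKM in yak, 6.08-fold higher (2.36, adjusted p 3.9e-06). TRIM21 (ENSBGRG00000012893), the cytosolic antibody receptor, had 21.1, 10.6 and 22.2 FPKM and 3.03, 1.71 and 3.11 FPKM, with C2 well below C1 and C3 but above every yak (2.35 ± 0.29 SE, adjusted p 0.0001). TRIM26 had 15, 19 and 14.9 FPKM and 4.1, 3.44 and 3.95 FPKM (1.83). TRIM65, which acts on the sensor MDA5, had 3.23, 3.37 and 2.85 FPKM and 0.889, 0.693 and 0.899 FPKM, and its rise of 1.18 fell to 0.81 with median-of-ratios scaling. TRIM5, TRIM25, TRIM34, TRIM38 and TRIM56, the other members called higher, rose by 1.34 to 1.81, and of these TRIM25 was not called with median-of-ratios scaling. TRIM5 and TRIM26 each stand on more than 1 gene and are uncertain.

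TRIM14 (ENSBGRG00000001079), an adaptor of antiviral signalling that lacks a RING, went the other way, with 3.37, 2.97 and 1.11 FPKM in cattle-yak and 30.6, 34.2 and 28.8 FPKM in yak. It fell 12.6-fold (−3.27, adjusted p 8.1e-06), with C3 the lowest animal. RNF114, the most abundant of the list, had 101, 82.6 and 86.5 FPKM in cattle-yak and 75.2, 96.5 and 75.2 FPKM in yak, and the groups overlapped (0.13, adjusted p 0.37; −0.48 with median-of-ratios scaling). Of 6 macrophage markers tested, 3 were higher and 2 lower, and their summed level was 71.9 to 94.7 FPKM in cattle-yak and 97.6 to 116 FPKM in yak. A large part of the yak sum was AIF1, with 3.65, 4.23 and 2.75 FPKM in cattle-yak and 69.5, 57.7 and 56.5 FPKM in yak. CD14 was also lower. C1QA, CD163, CD68 and CSF1R, the last not called, were above every yak in all cattle-yak, so the markers give no common direction.

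Ligases bound to membranes differed by list. Of the 9 genes with a protease-associated domain, a transmembrane helix and a RING (PA-TM-RING), 5 were higher and 2 lower. These were 55.6% and 22.2%, against 33.4% and 20.8% of all genes. The median was 1.27, or −0.94 when centred on Sertoli markers. RNF128 (ENSBGRG00000017922), known as GRAIL from T cell anergy, had 47.4, 38.3 and 48.4 FPKM in cattle-yak and 6.7, 6.84 and 8.06 FPKM in yak, 6.21-fold higher (2.48 ± 0.13 SE, adjusted p 1e-06). RNF13 (ENSBGRG00000015971) had 45.7, 46.3 and 42.5 FPKM and 11.9, 10.5 and 13.1 FPKM (1.84, adjusted p 2e-06). In both genes every cattle-yak was well above every yak. RNF130, RNF149 and RNF215 also rose, by 1.27 to 1.55, and were not called with median-of-ratios scaling (0.81 to 0.99).

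Of 12 ligases of the endoplasmic reticulum membrane, 5 were lower (41.7%, against 20.8% of all genes) and 1 higher (8.33%, against 33.4%). The median was −0.60. TRIM13 (ENSBGRG00000017523), which is anchored there and takes part in the removal of misfolded proteins, was the most abundant ligase of all in yak. It had 619, 665 and 576 FPKM in Y1 to Y3 and 58.3, 45.6 and 32.8 FPKM in C1 to C3, a fall of 13.6-fold with C3 the lowest (−3.77 ± 0.19 SE, adjusted p 7.3e-07). MARCHF6, a ligase of sterol synthesis enzymes, had 45.6, 34 and 37.6 FPKM against 137, 139 and 135 FPKM (−1.79, adjusted p 2.8e-06). RNF170, which acts on inositol trisphosphate receptors, was the member that rose, from 14.6, 13 and 15.6 FPKM in yak to 35.5, 36.2 and 37.2 FPKM in cattle-yak (1.28, but 0.69 and not called with median-of-ratios scaling).

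Of the 7 MARCHF genes tested outside the germ cell and endoplasmic reticulum lists, 2 were lower (28.6%, against 20.8% of all genes). MARCHF3 had 1.34, 0.838 and 0.994 FPKM in cattle-yak and 6.58, 6.98 and 5.6 FPKM in yak (−1.85, adjusted p 1.3e-05), and MARCHF2 27.2, 28.6 and 25.6 FPKM and 104, 82.5 and 87.1 FPKM (−1.71, adjusted p 2.9e-06). MARCHF7, the most abundant, had 56.7, 61.7 and 58.3 FPKM and 64.4, 59.9 and 67 FPKM, which overlapped (−0.11, adjusted p 0.28). MARCHF8, which removes MHC class II from the cell surface, had 20.6, 19.1 and 20.5 FPKM and 16.2, 13.1 and 16.7 FPKM and was not called (0.37; −0.21 with median-of-ratios scaling).

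RBR ligases, which combine a RING with a HECT-like catalytic step, had 4 genes higher (57.1%, against 33.4% of all genes) and 1 lower (14.3%, against 20.8%) of 7. The median was 1.21, or −1.0 when centred on Sertoli markers. With median-of-ratios scaling 1 was higher (17.6% of all genes were), and RNF14, RNF216 and RNF217 were not called. RNF144B (ENSBGRG00000007714), a p53 target, had 12.6, 14.6 and 17.9 FPKM in cattle-yak and 2.32, 2.62 and 2.34 FPKM in yak and rose 6.18-fold (2.21, adjusted p 4.2e-06). The close relatives RNF19A and RNF19B differed. RNF19B had 38.2, 31.6 and 27.5 FPKM against 136, 152 and 127 FPKM and fell (−2.07, adjusted p 2.7e-06). RNF19A had 65.6, 69.6 and 67.4 FPKM against 65.9, 64.2 and 70.5 FPKM, which overlapped, with a log2 (foldchange) of 0.01 ± 0.09 (SE) that was −0.60 with median-of-ratios scaling. The difference between the relatives was not tested.

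Ligases that read N-degrons, the destabilising ends of proteins, had 1 gene higher of 4 (25%, against 33.4% of all genes) and none lower. UBR2 (ENSBGRG00000021453), needed for meiosis in male mice, had 13.4, 13.8 and 13.7 FPKM in cattle-yak and 4.44, 3.65 and 4.26 FPKM in yak, and its rise of 1.52 (adjusted p 9.7e-06) was just inside the threshold at 0.98 with median-of-ratios scaling. UBR4 had 31.7, 29.5 and 24.9 FPKM against 36.9, 35.3 and 28.4 FPKM, which overlapped between the groups (−0.22, adjusted p 0.18).

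Of 15 ligases of receptor and hypoxia signalling, 3 were higher (20%, against 33.4% of all genes) and 4 lower (26.7%, against 20.8%). The median was 0.01, or −0.29 with median-of-ratios scaling. RNF6 (ENSBGRG00000004463), which modifies the androgen receptor, had 43.5, 29.7 and 29.7 FPKM in cattle-yak and 230.1, 241 and 205 FPKM in yak, 6.56-fold lower (−2.70, adjusted p 1.5e-06). It was the most abundant of the list in yak, and C1 was the highest cattle-yak. RNF115 had 24.5, 21.3 and 21.9 FPKM and 9.17, 9.49 and 9.52 FPKM, and its rise of 1.18 fell to 0.60 with median-of-ratios scaling. Among TRIM genes known from muscle and neurons, 4 were lower (66.7%, against 20.8% of all genes) and 1 higher (16.7%, against 33.4%) of 6 tested. The median was −1.75. TRIM46, which organises microtubules in axons, had 1.2, 0.423 and 0.185 FPKM and 8.86, 9.24 and 8.3 FPKM (−2.66, adjusted p 1.2e-05). TRIM32, the most abundant, had 21.8, 20.8 and 19 FPKM and 62.9, 57.8 and 56.3 FPKM and fell (−1.48, adjusted p 3.4e-06). TRIM3 was the member that rose, with 4.91, 3.87 and 4.05 FPKM and 1.24, 1.37 and 1.22 FPKM (1.21, but 0.78 with median-of-ratios scaling).

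Of the 49 tested members outside these lists, 14 were higher (28.6%, against 33.4% of all genes) and 9 lower (18.4%, against 20.8%). TRIM62 (ENSBGRG00000016821) had the largest rise of any member on the scale of log2 (FPKM + 1), though not by the ratio of means, with 20.4, 24.5 and 23.5 FPKM in cattle-yak and 3.52, 3.29 and 2.82 FPKM in yak (7.09-fold, 2.50 ± 0.13 SE, adjusted p 1.1e-06). RNF157 (ENSBGRG00000024644) had 26.6, 19.2 and 24.6 FPKM and 4.52, 3.64 and 4.14 FPKM (2.25, adjusted p 3.5e-06). RNF113A, a splicing factor, had 9.76, 11.3 and 11.3 FPKM and 1.71, 2.57 and 1.57 FPKM (2.01, adjusted p 1e-05). In these 3 genes the groups were far apart and each was called with median-of-ratios scaling too. TRIM17 (ENSBGRG00000003402) went the other way, from 50.3, 35 and 52.3 FPKM in yak to 0.485, 0 and 0.0618 FPKM in cattle-yak (8, 0 and 1 fragments; −5.31, adjusted p 3.3e-07). RNF223, named after its values were seen, was at 0 in all cattle-yak and had 2.66, 2.86 and 5.48 FPKM in yak, at least 33.9-fold lower against a floor of 3 fragments over the group. Both groups were mapped to the yak genome, and the part of this in such a value was not tested. TRIM8 had 10.4, 18.3 and 14.4 FPKM and 6.85, 4.29 and 7.67 FPKM, and its rise of 1.08 was lost without C2 (0.90), without Y2 (0.86) and with median-of-ratios scaling (0.52).

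The smallest changes of any tested member were those of RNF19A, of the SIAH1 gene ENSBGRG00000026389 and of RNF166. SIAH1 ENSBGRG00000026389 had 1.58, 0.523 and 0.605 FPKM in cattle-yak and 1.16, 1.25 and 0.27 FPKM in yak, and RNF166 had 4.25, 4.57 and 2.48 FPKM and 2.52, 4.38 and 4.54 FPKM. Both overlapped fully, with log2 (foldchange) of 0.01 ± 0.29 and −0.01 ± 0.25 (SE). Of the 67 members not called, 35 still had an adjusted p under 0.05, 14 of them below 0 and 21 above. The 22 members not tested had a mean under 0.5 FPKM over the 6 animals.

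The enzymes that act before the ligases were described as a whole list. Of 39 E1 and E2 genes tested, 9 were higher (23.1%) and 6 lower (15.4%), against 33.4% and 20.8% of all genes, with a median of −0.07. With median-of-ratios scaling 4 were higher and 12 lower, against 17.6% and 27.9% of all genes. UBE2U (ENSBGRG00000016440) had 7.81, 5.23 and 3.36 FPKM in cattle-yak and 99.6, 97.5 and 115 FPKM in yak (−4.08, adjusted p 1.4e-06), and UBE2J1, an E2 of the endoplasmic reticulum, 26.9, 23.8 and 24.1 FPKM and 263, 230.1 and 315 FPKM (−3.37, adjusted p 2.4e-07). UBE2D3 stood on several genes, of which ENSBGRG00000026351 was at 0 in all cattle-yak and had 52.9, 62.9 and 57 FPKM in yak (−5.87), an uncertain value. The largest rises on the scale of log2 (FPKM + 1) were those of UBE2S ENSBGRG00000012362, with 24.2, 20.9 and 26.6 FPKM and 1.19, 1.31 and 0.361 FPKM (3.70), also 1 of several genes and uncertain, of UBE2E2 (2.10) and of UBE2E3 (1.85).

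Of 29 HECT ligases tested, 9 were higher (31.0%) and 3 lower (10.3%), against 33.4% and 20.8% of all genes, or 4 and 6 with median-of-ratios scaling, against 17.6% and 27.9%, with a median of 0.60 that was −0.003 with median-of-ratios scaling and −1.61 when centred on Sertoli markers. HUWE1 (ENSBGRG00000026013) had 39.9, 45.1 and 39 FPKM in cattle-yak and 12.6, 11.4 and 11.5 FPKM in yak (1.72, adjusted p 2.2e-06), HERC3 rose by 1.64, and ENSBGRG00000005595, 1 of a pair of HERC2 genes, by 1.53. SMURF1, which acts on BMP signalling, had 11, 8.87 and 8.54 FPKM and 40.6, 39.4 and 30 FPKM (−1.84, adjusted p 9.9e-06), and HECTD3 (−1.58) and WWP2 (−1.29) also fell. The largest HECT fall was thus that of SMURF1.

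Among the cattle-yak, the members that fell were most often highest in C1, as were the genes of the whole table that fell. C1 was the highest of the 3 in 33 of the 44 members called lower, against 66.1% of all genes called lower. C1 also had the highest marker sums of the cattle-yak for round spermatids (56.5 FPKM) and elongating spermatids (85.9 FPKM), and the part of those cells in its ligase levels was not tested. C2 was the highest in 24 of the 42 members called higher, against 47.9% of all genes called higher. Leaving out each animal in turn left 40 to 44 members higher and 43 to 45 lower.

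The gene ontology terms deposited beside the values cut the members differently. Of 8 members with the term spermatogenesis, 3 were higher (a pair of SIAH1 genes and UBR2, while 33.4% of all genes were higher) and none lower, and none of the 3 was called with median-of-ratios scaling. TRIM36 was the 1 member with the term acrosomal vesicle. Of 16 tested with the term innate immune response, 6 were higher and 5 lower, and of 12 in the KEGG pathway ubiquitin mediated proteolysis, 3 were higher and 2 lower. Over all genes, 33.4% were higher and 20.8% lower.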

How the data were processed

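Testis RNA of 3 cattle-yak and 3 yak was sequenced from stranded mRNA libraries, 1 per animal. Per the study's methods, the authors trimmed reads with Trimmomatic, mapped both groups to the yak genome LU_Bosgru_v3.0 with HISAT2, calculated FPKM with Cufflinks and counted reads with HTSeq, and tool versions are not given in the sources used here. The deposited FPKM values, made by the authors, are per gene length and library depth with no scaling between libraries. Columns were assigned to animals by their labels.

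Whole fragments were recovered from the steps of the FPKM values for 17973 genes (all values whole within 0.03). On simulated data the recovery was exact for 98.51% of genes. The main test was limma 3.58.1 in R 4.3.3 (two-sided moderated test, empirical Bayes with the prior variance following the mean) on log2 (FPKM + 1) for the 15042 genes with a mean of at least 0.5 FPKM, with Benjamini-Hochberg adjustment over all of them and calls at an adjusted p under 0.05 and a log2 (foldchange) beyond 1. When 200 genes were changed 4-fold in data simulated for this comparison on 15042 genes, 186 were recovered with 2 false calls. Alternatives were a pseudocount of 0.1, no filter, a mean of at least 5 FPKM, median-of-ratios scaling, centring on 14 Sertoli markers, no variance trend, voom on the recovered fragments, and leaving out each animal.

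The members, role lists, marker lists and tests were chosen with earlier results of these data known. Named members were the germ cell ligases and RLIM, the 12 largest called changes each way, the extremes and most abundant gene of each role list, those called in opposite directions under another scaling, and the 3 smallest changes. A member that the rule names is not reported here. MDM2, MDM4, TRIM24, TRIM33, TRIM43, MARCHF2, MARCHF6, RNF10, RNF181 and the members given only by a range were named after their values were seen. Of the E1 and E2 and the HECT lists, the 3 largest called changes each way were named. Sequences, chromosome positions and histology were not analysed here.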

Additional observations from a re-analysis of the deposited data

How the results depend on the processing

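Among the 68 named ligase, E1, E2 and HECT genes, the pseudocount of 0.1, no filter, no variance trend and voom on recovered fragments changed no direction and no call, nor did a mean of at least 5 FPKM for the 54 genes left. With median-of-ratios scaling 22 members were higher, of the E1 and E2 genes 4 were higher and 12 lower, and of the HECT ligases 4 and 6. The log2 (foldchange) then turned below 0 for TRIM71 (−0.11), RNF114 (−0.48), MARCHF8 (−0.21), RNF19A (−0.60) and SIAH1 ENSBGRG00000026389 (−0.26), none of them called before. Centred on Sertoli markers, 0 members were higher and 118 lower, 1 E1 or E2 gene was higher and 32 lower, and 0 HECT ligases were higher and 22 lower. It turned below 0 the members TRIM71 (−1.89), RLIM ENSBGRG00000023991 (−0.21), RNF113A (−0.20), TRIM64 ENSBGRG00000015006 (−0.31), RNF13 (−0.37), TRIM26 (−0.38), RNF170 (−0.93), UBR2 (−0.69), RNF167 ENSBGRG00000026241 (−1.41), RNF111 (−0.50), RNF114 (−2.08), TRIM3 (−1.0), MARCHF8 (−1.84), SIAH1 ENSBGRG00000017498 (−0.88), SIAH1 ENSBGRG00000013045 (−1.12), SIAH1 ENSBGRG00000026389 (−2.20), TRIM8 (−1.13), RNF115 (−1.03), RNF2 (−1.09), TRIM47 ENSBGRG00000022537 (−1.19), TRIM65 (−1.03) and RNF19A (−2.20), and UBE2E2 (−0.11), UBE2E3 (−0.36), HUWE1 (−0.49), HERC3 (−0.57) and HERC2 ENSBGRG00000005595 (−0.68). Both scalings shift whole libraries and so lower the log2 (foldchange) of nearly every gene by construction. Without 1 animal at a time, 40 to 44 members were higher and 43 to 45 lower, 8 to 9 E1 and E2 genes were higher and 6 to 7 lower, and 9 to 10 HECT ligases were higher and 3 lower. Small values near 0 changed sign there, in SIAH1 ENSBGRG00000026389 (from −0.25 without Y3 to 0.16 without Y2), RNF19A (from −0.01 without C2 or Y2 to 0.05 without Y3) and RNF166 (from −0.22 without Y1 to 0.20 without C3). No paired analysis was possible because the replicate numbers follow accession order and pair no animals. With 3 animals a group, and genes under 0.5 FPKM left out, small changes of rare ligases were not detectable at this depth.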
